A study of Homo sapiens with 4 samples.

Results

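The cytosolic ribosomal protein genes were taken from the gene tables as the protein-coding genes whose names begin with RPL (large subunit) or RPS (small subunit). The S6 kinase genes (names beginning RPS6K), RPS19BP1, names ending in L or L1 and genes on chromosome Y were left out. The rule used no measured value and gave 80 of 58735 genes, of which 48 were RPL and 32 RPS, and 21 protein-coding genes with such names were left out by it. The RNA-seq used HaCaT cells, which are immortalised human keratinocytes in long-term culture and are labelled as wild type, to find transcripts that differ when the RNA m6A demethylase ALKBH5 is knocked down. The cells had been transfected with control siRNA (siControl) or with siRNA against ALKBH5 (siALKBH5), and there were 2 libraries per group, the second of each labelled as the replicate. Poly-A RNA was sequenced, and the libraries held between 16017502 and 18837807 counts on genes. Whether the 2 libraries of a group came from separate cultures is not stated in the sources used here, so the p-values measure only the spread between these libraries, which may be technical.

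Ribosomal proteins assemble with ribosomal RNA into the small subunit, which reads the mRNA, and the large subunit, which joins the amino acids. In growing cells their mRNAs are among the most abundant, and most begin with a cytosine followed by a run of pyrimidines (the 5′ terminal oligopyrimidine, or TOP, motif), through which the mTORC1 pathway and LARP1 control their translation and stability. Free ribosomal proteins are unstable, and several have roles outside the ribosome, such as the binding of MDM2 by RPL5 and RPL11.

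Transfection with control siRNA left ALKBH5 at 1512 and 1576 counts, and siRNA against it left 956 and 816. Its level was 90.6 ± 4.41 CPM (counts scaled to a common library size, SD, n = 2) in siControl and 50.3 ± 1.13 in siALKBH5, which was 55.5% of the control level (log2 fold change -0.85 ± 0.05 (SE), adjusted p = 6.38e-15, edgeR). All 8 keratinocyte markers were above 100 CPM, with a summed level of 17720 to 18107 CPM in siControl and 23639 to 23721 in siALKBH5. The 5 fibroblast, 4 melanocyte, 3 leukocyte and 3 endothelial markers were each under 100 CPM, and PDGFRA, COL1A2 and TYR had 0 counts in every library. Genes of the mitochondrial genome held 9.63% and 9.64% of the counts in siALKBH5, against 10.2% in each siControl library.

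The start sites show the sequence feature by which these genes are best known. A RefSeq window (GRCh38.p14) was matched for 64 of the 80 genes, and a run of at least 8 pyrimidines (C or T) that includes the first transcribed base was found in 46 of them (71.9%). The same was found in 1623 of the 27305 gene symbols of the promoter table (5.94%) and in 724 of 9925 protein-coding genes tested here (7.29%). The 64 include the annotated readthrough genes RPL36A-HNRNPH2 and RPL17-C18orf32, counted separately. Their start sites are those of RPL36A (a run of 13) and RPL17 (no run). The 30 bases around the start site are printed for genes that were lower in siALKBH5 (RPL26, RPL22, RPL13A, RPS6), for RPLP0, which was not called, and for genes that were higher (RPSA, RPL7A, RPL4, RPS26). The first transcribed base is the 16th, and the capitals mark the pyrimidine run that includes it.
RPL26: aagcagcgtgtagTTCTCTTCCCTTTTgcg
RPL22: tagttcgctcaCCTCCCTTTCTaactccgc
RPL13A: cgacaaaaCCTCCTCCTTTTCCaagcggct
RPS6: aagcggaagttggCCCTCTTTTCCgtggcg
RPLP0: gcgcgggcgcgaggCCCTTCTCTCgccagg
RPSA: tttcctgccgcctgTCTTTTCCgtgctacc
RPL7A: ccacaaTTCCCTTTCCTTTCTCTCTCCTCC
RPL4: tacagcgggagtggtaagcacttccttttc
RPS26: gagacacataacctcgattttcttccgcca

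The windows lie at chr17:8383179-8383208 (minus strand, RPL26), chr1:6199581-6199610 (minus, RPL22), chr19:49487593-49487622 (plus, RPL13A), chr9:19380222-19380251 (minus, RPS6) and chr12:120201097-120201126 (minus, RPLP0). The others lie at chr3:39406705-39406734 (plus, RPSA), chr9:133348203-133348232 (plus, RPL7A), chr15:66504841-66504870 (minus, RPL4) and chr12:56041903-56041932 (plus, RPS26). The run was 14 bases in RPL26 and RPL13A, 11 in RPL22 and RPS6, 10 in RPLP0 and 8 in RPSA, and in RPL7A it was 25 bases and goes on past the printed window. In RPL4 and RPS26 the base annotated as the first was a purine, so that no run includes it. From 250 bases before the start to 50 after, on either strand, the ETS family core CCGGAAG was found in 22 of the 64 genes (34.4%), against 22.6% of the tested protein-coding genes and 12.2% of all symbols. The SP1 core GGGCGG was found in 37 (57.8%, against 76.9% and 48.3%), the YY1 core AAGATGG in 8 (12.5%, against 9.37% and 7.11%) and TATAAA in 6 (9.38%, against 8.22% and 14.0%). The 4 motifs were searched separately, and none of them contains another.

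Summed over the family, the share of counts was slightly smaller in siALKBH5. Together the 80 genes held 9.10% and 9.15% of all counts in siControl and 8.59% and 8.68% in siALKBH5, so the groups did not overlap. The share was 9.13 ± 0.0333% (SD, n = 2) in siControl and 8.64 ± 0.0635% in siALKBH5, and it was 0.491 percentage points lower in siALKBH5. With 2 libraries against 2 the exact two-sided permutation test cannot go below p = 0.333, which is the value it gave. Large subunit genes held 5.86% and 5.90% of the counts in siControl and 5.49% and 5.53% in siALKBH5, and small subunit genes held 3.24% and 3.25%, and 3.10% and 3.15%. A share is relative to all other genes in the library, so that less ribosomal protein mRNA per cell and more of other mRNAs cannot be told apart.

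**Figure D1:**
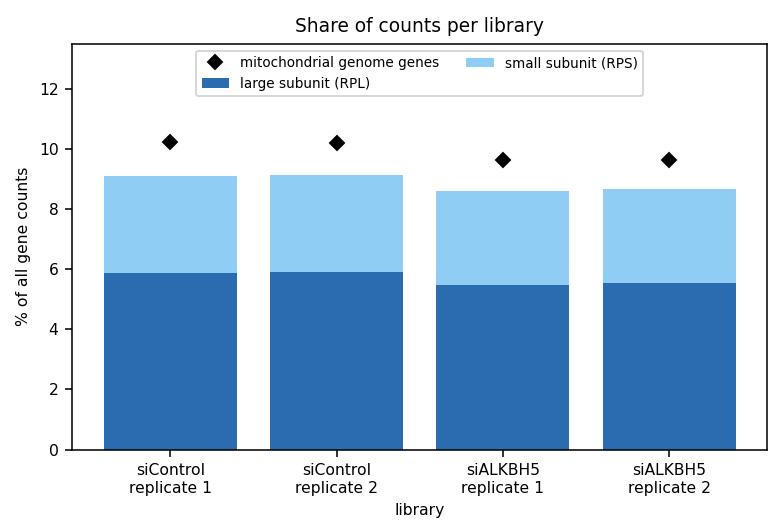
Share of all gene counts (%, y axis) held in each of the 4 libraries (x axis) by large subunit (dark bar) and small subunit (light bar) genes, with the share of the mitochondrial genome genes as diamonds. The stacked bars reach 9.10% and 9.15% in siControl and 8.59% and 8.68% in siALKBH5, and the diamonds are lower in siALKBH5 as well.

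Of these genes, 66 held a smaller mean share in siALKBH5, and their losses summed to -0.609 percentage points, while 11 held a larger share, by 0.118 points in all. RPL13A, from whose introns several snoRNAs are made, made the largest loss, from 0.321% to 0.271% of all counts. RPS2 made the largest gain, from 0.316% to 0.368%, and RPSA rose from 0.109% to 0.132%.

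Gene by gene, most of the family was lower by a small amount and a few genes were higher. The expression filter was passed by 77 of the 80, and 48 of these were lower and 8 higher in siALKBH5 at an adjusted p under 0.05 (edgeR), while 21 were not called. Over all 15075 genes tested, 17.3% were lower and 19.3% were higher at the same threshold, with a median log2 fold change of -0.01. The median over the 77 genes was -0.09, the lowest -0.44 (RPL26) and the highest 0.31 (RPSA). None of the 77 reached a log2 fold change of 1 in size, which 2.92% of all tested genes did together with an adjusted p under 0.05. Abundant genes are called more readily: of the 1819 genes of at least 100 CPM, 27.0% were lower and 43.5% were higher, with a median log2 fold change of 0.05, whereas 46 of the 73 ribosomal protein genes at this level were lower and 8 higher, with a median of -0.09. In 54 of the 77 genes both siALKBH5 libraries lay below both siControl libraries, and in 10 both lay above, against 33.5% and 32.8% of all tested genes. Among the 73 genes of at least 100 CPM, the log2 ratios within the first and within the second pair of libraries went together with Pearson r = 0.95 and Spearman rho = 0.91, across genes that share the libraries and their scaling.

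Genes of both subunits were lower more often than higher. Of the 46 large subunit genes tested, 30 were lower, 4 higher and 12 not called, with a median log2 fold change of -0.10. Of the 31 small subunit genes, 18 were lower, 4 higher and 9 not called, with a median of -0.07.

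**Figure D2:**
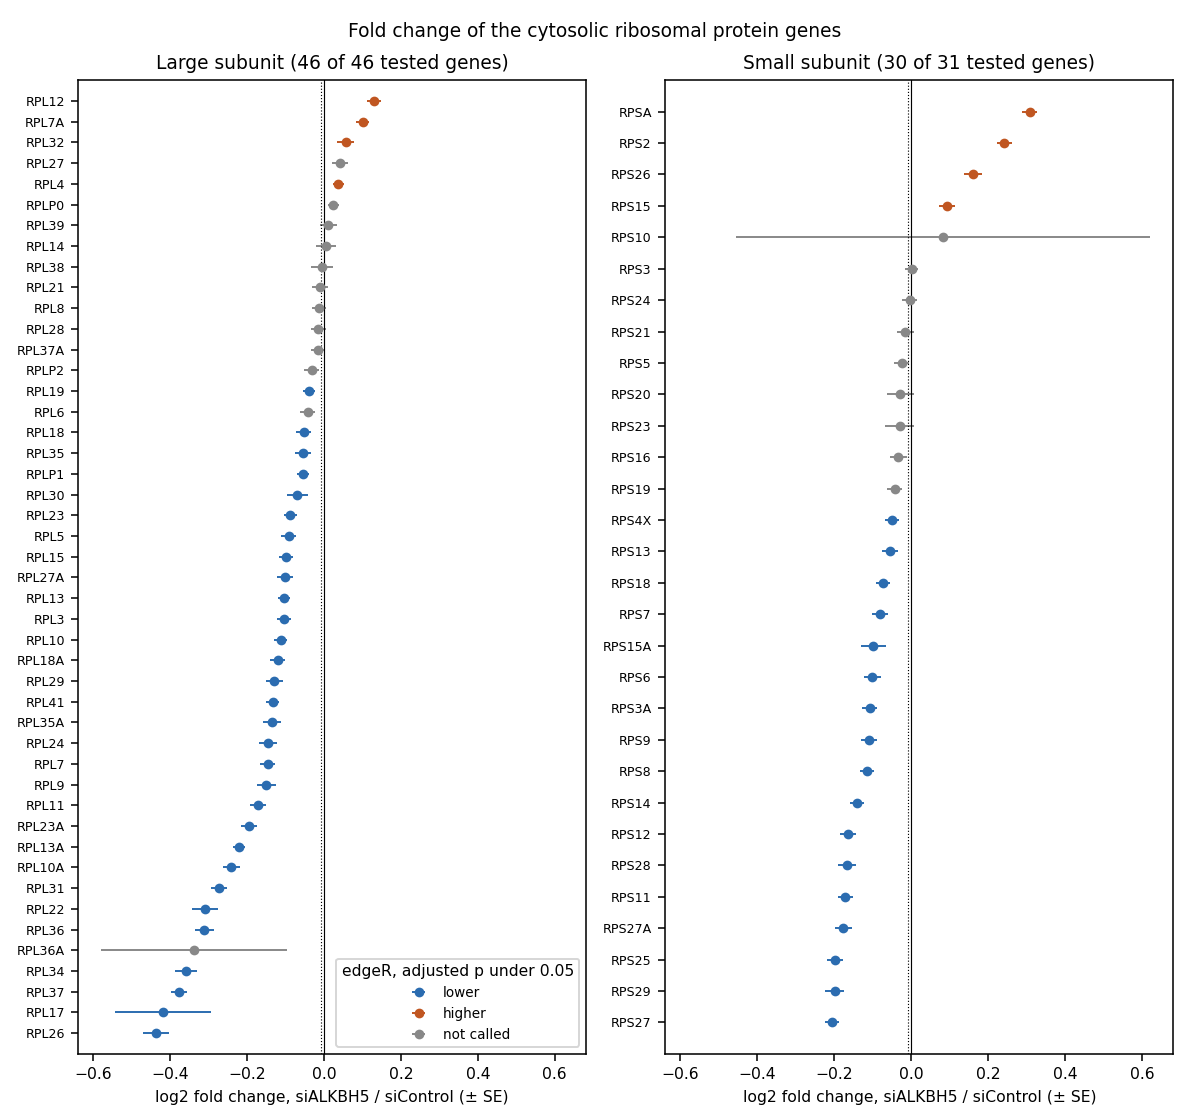
The log2 fold change of siALKBH5 over siControl (x axis, bars ± SE of the edgeR fit) of the 46 large subunit (left) and 31 small subunit (right) genes that were tested, of which 30 are drawn on the right, ordered by value, with genes called lower in blue, called higher in orange and not called in grey. The dotted line marks the median of all tested genes, -0.01. Most genes lie left of it, RPSA and RPS2 lie farthest to the right, and RPL36A and RPS10 have the widest bars.

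The strongest decreases were in large subunit genes. RPL37, a small zinc finger protein of the large subunit, had 889 and 895 CPM in siControl and 677 and 696 in siALKBH5. Its log2 fold change was -0.38 ± 0.02 (SE, adjusted p = 4.89e-16), the smallest adjusted p of the family. RPL34, another large subunit protein, had 334 and 332 CPM in siControl and 256 and 263 in siALKBH5 (-0.36 ± 0.03, adjusted p = 2.43e-12). RPL22, which also binds RNAs of the Epstein-Barr virus, had 218 and 219 CPM in siControl and 173 and 180 in siALKBH5 (-0.31 ± 0.03, adjusted p = 2.98e-09). RPL13A, a component of the interferon-gamma-activated inhibitor of translation, had 3158 and 3205 CPM in siControl and 2718 and 2744 in siALKBH5 (-0.22 ± 0.02, adjusted p = 1.43e-13). In none of these genes did the groups overlap, and the gap between groups was several times the distance between replicates. RPL36, RPL31 and RPL10A, named here after their values were seen, lay at -0.31, -0.27 and -0.24.

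The increases were led by proteins of the small subunit. RPSA (ENSG00000168028), the protein of the small subunit surface near the mRNA exit that also serves as a laminin receptor, had 1064 and 1089 CPM in siControl and 1325 and 1342 in siALKBH5. Its log2 fold change was 0.31 ± 0.02 (SE, adjusted p = 6.45e-15). RPS2, which lies at the mRNA entry, had 3179 and 3090 CPM in siControl and 3602 and 3815 in siALKBH5 (0.24 ± 0.02, adjusted p = 1.39e-12). RPS26, which contacts the mRNA upstream of the start codon, had 501 and 502 CPM in siControl and 556 and 564 in siALKBH5 (0.16 ± 0.02, adjusted p = 1.16e-06). In the large subunit, RPL12, at the base of the stalk, had 1389 and 1409 CPM in siControl and 1509 and 1554 in siALKBH5 (0.13 ± 0.02, adjusted p = 8.73e-07), and RPL7A had 2498 and 2573 against 2694 and 2745 (0.10 ± 0.02, adjusted p = 1.08e-05). All of these groups were separate. With length and GC trends removed, RPL12 was at 0.07 and RPL7A at 0.04 (adjusted p = 0.0866), which was no longer called. RPS15 (0.09), RPL32 (0.06, adjusted p = 0.0482) and RPL4 (0.04, adjusted p = 0.0458) complete the 8 genes called higher. RPL4 was called in 8 of 17 alternatives. It was not called when libraries were scaled by their totals alone (0.01, adjusted p = 0.449). Totals without the ribosomal protein genes (adjusted p = 0.748) or without mitochondrial genes (0.802) did not call it either. The same held for limma (adjusted p = 0.480 and 0.472) and with length and GC trends removed (0.03, adjusted p = 0.133). With 1 library left out RPL4 lay between 0.03 and 0.04. It lost its call without siControl replicate 2, without siALKBH5 replicate 1 and without siALKBH5 replicate 2. RPS15 was not called with limma (adjusted p = 0.102 and 0.101). RPL32 was called in 5 of 17 alternatives, missed the threshold with DESeq2 (adjusted p = 0.0867), without siControl replicate 1 (0.155) or 2 (0.0900) and without siALKBH5 replicate 2 (0.329), and lay at -0.02 with length and GC trends removed (adjusted p = 0.605).

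**Figure D3:**
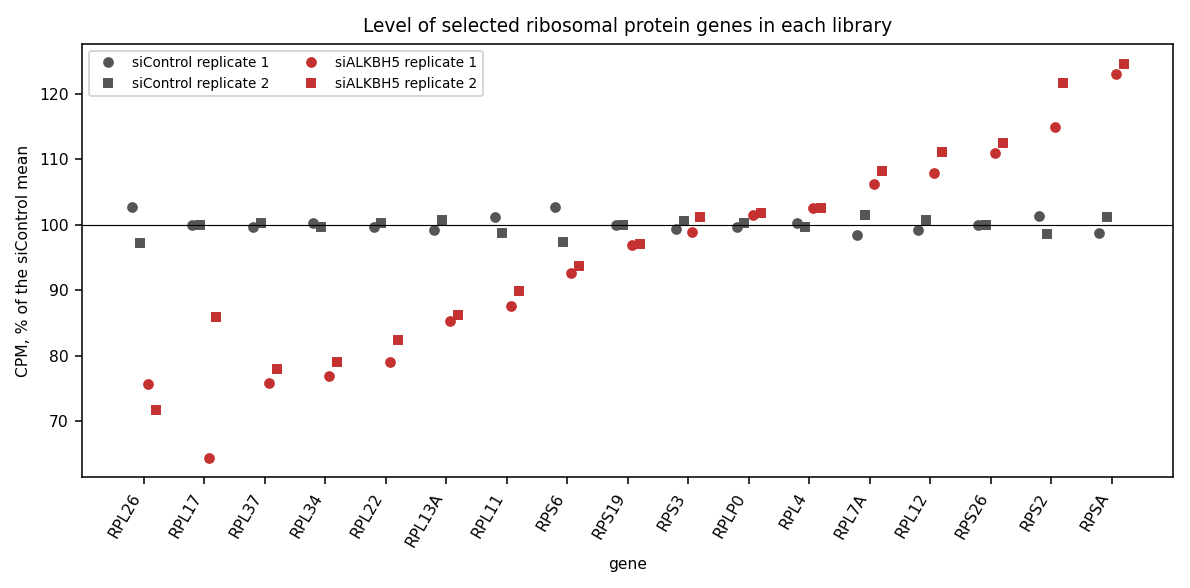
CPM of 17 genes in each library as a percentage of the siControl mean (y axis), with siControl libraries in grey, siALKBH5 libraries in red, circles for replicate 1 and squares for replicate 2. RPL37, RPL34 and RPL22 lie near or below 80% in both siALKBH5 libraries, RPS3 lies at the line, RPSA lies above 120%, and RPL17 shows the widest gap between the siALKBH5 libraries.

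By position in the ribosome, the proteins near the peptidyl transferase centre and at the joining of the subunits shared a direction. It was that of most large subunit genes, of which 30 of 46 were lower, with a median log2 fold change of -0.10. All 4 genes of the peptidyl transferase and joining group were lower, with log2 fold changes between -0.15 and -0.09. They included RPL3, which reaches into the catalytic centre (1727 and 1748 CPM in siControl, 1635 and 1599 in siALKBH5, -0.10 ± 0.02, adjusted p = 1.59e-05), and RPL10, which is among the last to be added in the maturation of the large subunit (2073 and 2049 CPM, against 1907 and 1905, -0.11 ± 0.02, adjusted p = 1.46e-06). Part of the RPL10 transcript (55.9%) lies in exons of other genes on the opposite strand, and the library preparation did not mark strand, so its reads cannot be fully told apart from theirs. The same holds for parts of other transcripts of the family, among them RPS25 (36.6%), RPS28 (27.5%) and RPS6 (20.3%). With length and GC trends removed RPL3 was at -0.17 and RPL10 at -0.18. Both proteins that form a particle with 5S ribosomal RNA and hold MDM2 were lower. RPL11 had 1122 and 1094 CPM in siControl and 971 and 997 in siALKBH5 (-0.17 ± 0.02, adjusted p = 2.48e-08), and RPL5 had 1021 and 1019 against 950 and 966 (-0.09 ± 0.02, adjusted p = 0.000369).

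Of the 3 genes of the stalk, which recruits the elongation factors, 1 was lower and 0 higher. RPLP0, its base and the most abundant member in CPM, had 3803 and 3822 CPM in siControl and 3869 and 3884 in siALKBH5. The groups did not overlap, but the difference was not called (0.02 ± 0.01, adjusted p = 0.204). RPLP1 was lower (2264 and 2295 CPM, against 2189 and 2201, -0.05 ± 0.02, adjusted p = 0.00797; 0.0701 without siControl replicate 2), and RPLP2 was not called (-0.03 ± 0.02, adjusted p = 0.202). RPLP2 was called lower when libraries were scaled by totals alone (-0.05), by totals without the ribosomal protein genes (-0.06, adjusted p = 0.0114) or by totals without mitochondrial genes (-0.06, adjusted p = 0.00912). With length and GC trends removed RPLP0 was called lower (-0.05, adjusted p = 0.0204) and RPLP1 was at -0.10. Around the exit tunnel of the large subunit, 6 of 8 genes were lower, against 30 of 46 over the subunit. Of the other tunnel genes 1 was higher (RPL4) and 1 was not called. The gene not called there was RPL39, the smallest of the tunnel proteins, with 749 and 777 CPM in siControl and 775 and 763 in siALKBH5 (0.01 ± 0.02, adjusted p = 0.738). RPL41, the shortest of all ribosomal proteins, was lower (1542 and 1517 CPM, against 1388 and 1400, -0.13 ± 0.02, adjusted p = 2.82e-07). RPL38, known for its part in the translation of Hox mRNAs, had 294 CPM in both siControl libraries and 289 and 297 in siALKBH5, so that the groups overlapped (-0.01 ± 0.03, adjusted p = 0.895). As in RPL10, part of its transcript (57.8%) lies in exons of a gene on the opposite strand.

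In the small subunit, the proteins around the mRNA did not move together. At the mRNA entry and decoding site 1 of 6 genes was lower and 2 were higher, with a median log2 fold change of 0.04. That median falls midway between the values of RPS3 and RPS10. RPS10 was too thinly covered to be placed (0.08 ± 0.54, SE), so the median gives no direction for this group. At the platform and mRNA exit 2 of 4 genes were lower and 2 higher. RPS3, at the entry, had 2137 and 2165 CPM in siControl and 2129 and 2178 in siALKBH5, and the groups overlapped (0.00 ± 0.02, adjusted p = 0.96). RPS27A, which is made as a fusion with ubiquitin, was lower (991 and 1007 CPM, against 863 and 905, -0.18 ± 0.02, adjusted p = 5.33e-08). RPS14, a platform protein, was lower (1377 and 1390 CPM, against 1239 and 1271, -0.14 ± 0.02, adjusted p = 2.34e-07), which differs in sign from RPSA and RPS26 of the same group. RPS6, the substrate of the S6 kinases, was lower (1275 and 1209 CPM, against 1151 and 1165, -0.10 ± 0.02, adjusted p = 0.00025), and without siControl replicate 1 it was at -0.06 and still called. RPS18, at the head of the subunit, was lower by less (1810 and 1824 CPM, against 1704 and 1750, -0.07 ± 0.02, adjusted p = 0.00125, and -0.13 with length and GC trends removed).

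Of 20 genes of the family that are known for mutations in Diamond-Blackfan anaemia, an inherited failure of red cell production, 14 were lower and 1 (RPS26) was higher. Over all 77 tested genes of the family 48 were lower and 8 higher, and the median log2 fold change was -0.09 in both sets. RPS19, the gene most often mutated, had 1012 and 1013 CPM in siControl and 982 and 984 in siALKBH5. The groups were separate, but the difference was not called (-0.04 ± 0.02, adjusted p = 0.0813). RPS19 was called lower in 8 of 17 alternatives. Among them were scaling by library totals alone (-0.07, adjusted p = 0.00769) and removal of length and GC trends (-0.12, adjusted p = 1.28e-05).

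The level of the genes was compared per kilobase of the listed gene length, which is the length of all annotated exons together and for some genes is many times that of the mRNA. On this scale (CPM per kilobase, mean of the 4 libraries) the 77 genes with counts ranged from 0.276 to 1612, with a median of 300.9. The highest were RPS27, a zinc finger protein of the small subunit (1612), RPL19 of the large subunit (1452) and RPS2 (1418). Of these, RPS27 was lower in siALKBH5 (1799 and 1775 CPM in siControl, 1563 and 1535 in siALKBH5, -0.21 ± 0.02, adjusted p = 1.65e-11). RPL19 was just past the threshold (-0.04 ± 0.02, adjusted p = 0.044) and missed it with DESeq2 (adjusted p = 0.0716) and without any 1 of the 4 libraries (0.0724 to 0.195). The lowest included RPS10 and RPL36A, which have most of their transcript in exons of another annotated gene.

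That sharing went with low counts in this family. In 9 genes at least 40% of the representative transcript lies in exons of another gene on the same strand, a threshold set after the values were seen. These are the 3 annotated readthrough genes (RPL17-C18orf32, RPL36A-HNRNPH2 and RPS10-NUDT3), the genes they include (RPL17, RPL36A and RPS10, with 91.0%, 77.6% and 77.0%), RPL26 (59.0%), RPS15A (41.5%) and 1 other gene. The 3 readthrough genes had 0 counts in every library and were not tested. The other 6 had a median of 11.0 CPM, and 4 of them were under 100 CPM, while the 71 genes below this threshold lay between 151 and 3844 CPM, with a median of 1031. For RPS10, a protein of the mRNA entry, only 6 and 16 reads were counted under control siRNA and 16 and 8 under ALKBH5 siRNA, and for RPL36A 58 and 56 against 49 and 44. At these depths no difference was detectable (log2 fold change 0.08 ± 0.54 and -0.34 ± 0.24, adjusted p = 0.926 and 0.293). C18orf32, HNRNPH2 and NUDT3, the downstream genes of the readthroughs, had counts of their own in every library, and the genes that overlap RPL26 and RPS15A (AC135178.2 and AC138811.2) had 0 in all 4. The part of the way reads in shared exons were counted was not tested.

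**Figure D4:**
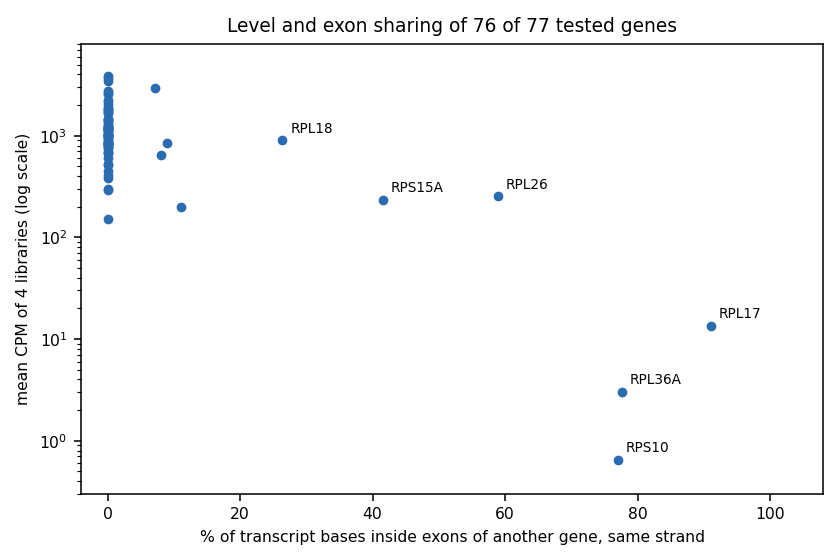
Mean CPM of the 4 libraries (y axis, log scale) of the 77 tested genes (76 are shown) against the percentage of the transcript that lies in same-strand exons of another gene (x axis). RPL17, RPL36A and RPS10, at over 70%, lie under 20 CPM, and RPS15A and RPL26 lie near 250 CPM.

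Among the genes with the lowest fold changes, RPL26 and RPL17 belong to these 9. RPL26, an exit tunnel protein, had 299 and 283 CPM in siControl and 221 and 209 in siALKBH5 (-0.44 ± 0.03, adjusted p = 5.85e-13). RPL17, at the tunnel exit, had 15.2 and 15.3 CPM in siControl and 9.84 and 13.1 in siALKBH5 (-0.42 ± 0.13, adjusted p = 0.0084). RPL17 lost its call without siALKBH5 replicate 1 (-0.22, adjusted p = 0.261) and with DESeq2 (adjusted p = 0.0652). RPL26 was called in both. Without the 9 genes, 44 of 71 were lower and 8 higher, with a median log2 fold change of -0.08.

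Ribosomal protein genes have many processed pseudogenes, copies of their mRNAs in the genome, with which reads can be shared. The tables held 1132 annotated pseudogenes of 76 of the 80 genes, 795 of which had 0 counts in every library. Summed, their counts were 3.76% and 3.88% of those of the family in siControl and 4.06% and 4.24% in siALKBH5. Of the 93 pseudogenes that passed the filter, 12 were lower and 6 higher, against 17.3% and 19.3% of all tested genes. RPS2P5 was the most abundant, at 796 ± 5.21 CPM (SD, n = 2) in siControl and 1001 ± 21.8 in siALKBH5 (log2 fold change 0.33 ± 0.02, adjusted p = 9.24e-15). RPS2P46 was higher as well (0.40 ± 0.03, adjusted p = 1.16e-13), as was RPSAP15 (0.31 ± 0.06, adjusted p = 0.000187), so that the pseudogenes moved as RPS2 and RPSA did, and these were named after their values were seen. With the counts of its pseudogenes added, the log2 fold change of RPS2 was 0.27 and that of RPSA 0.31. Of the RPSA and RPS2 transcripts, 66.1% and 69.4% of the windows of 50 bases occur in another annotated gene. The share of reads that came from the pseudogenes themselves was not tested.

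Genes with and without a pyrimidine run were compared by their change. Of the 45 tested genes with a run of at least 8, 27 were lower, 2 higher (RPSA and RPL7A) and 16 not called, with a median log2 fold change of -0.07. Of the 17 tested genes with a RefSeq start and no such run, 10 were lower, 5 higher and 2 not called, with a median of -0.10. A run that does not include the annotated first base, as in the printed window of RPL4, was not counted. The split therefore depends on where the start is annotated and need not part TOP mRNAs from others. The 28 genes with snoRNAs in their introns had a median of -0.09 with 17 lower and 6 higher, and the 49 others had a median of -0.10 with 31 lower and 2 higher. Across the 77 genes the log2 fold change went weakly with transcript GC content (Pearson r = 0.24, Spearman rho = 0.22) and with log2 mean CPM (0.34 and 0.28). With GC content it was 0.13 and 0.18 across 12518 tested protein-coding genes.

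**Figure D5:**
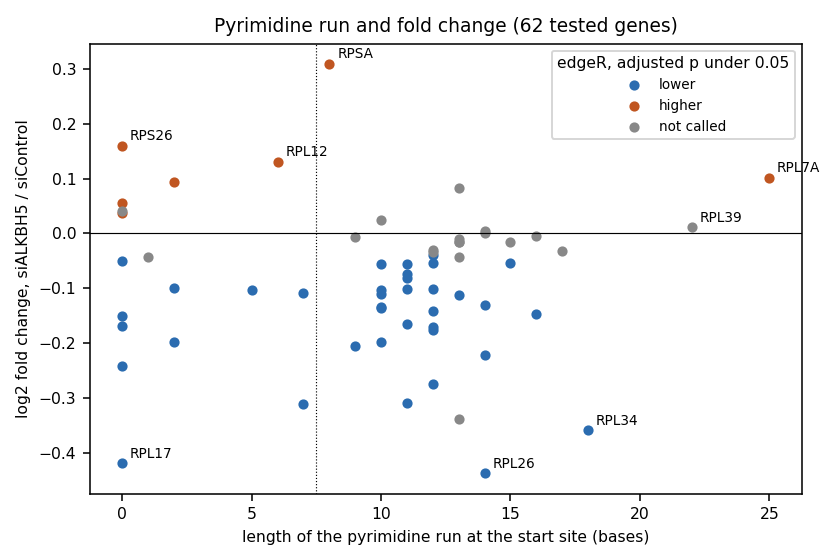
The log2 fold change of siALKBH5 over siControl (y axis) against the length in bases of the pyrimidine run that includes the annotated start site (x axis, 0 where the first base is a purine) for the 62 tested genes with a RefSeq start, coloured by call. Genes to the right of the dotted line have a run of at least 8, and lower genes lie on both sides of it.

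Some ribosomal proteins carry other names. FAU, which encodes RPS30 fused to a ubiquitin-like protein, was lower (469 and 460 CPM in siControl, 411 and 397 in siALKBH5, -0.20 ± 0.03, adjusted p = 8.95e-08). RACK1, a scaffold on the small subunit, was not called (0.00 ± 0.02, adjusted p = 0.897) but was called lower with length and GC trends removed (-0.06, adjusted p = 0.0171). Of 7 paralogs tested, 2 were lower and 2 higher, against 17.3% and 19.3% of all tested genes. RPL39L was the highest (0.62 ± 0.11, adjusted p = 3.92e-05) at 13.0 and 11.4 CPM in siControl and 17.8 and 19.5 in siALKBH5, and RPS27L was the lowest (-0.34 ± 0.10, adjusted p = 0.00706). RPS27L was not called with DESeq2 (adjusted p = 0.0601), without siControl replicate 2 (0.0960) or without siALKBH5 replicate 2 (0.0866).

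Other mRNAs with a TOP motif did not share 1 direction, with 8 of 18 lower and 5 higher. Of all tested genes 17.3% were lower and 19.3% higher, and of those of at least 100 CPM 27.0% and 43.5%. EEF1A1, the elongation factor that brings aminoacyl-tRNA, was lower (13744 and 13742 CPM in siControl, 12984 and 13147 in siALKBH5, -0.07 ± 0.01, adjusted p = 5.23e-06), as were TPT1, the translationally controlled tumour protein (-0.19 ± 0.02), and EIF3E, a subunit of the initiation factor eIF3 (-0.32 ± 0.03). EEF2, the translocation factor, was higher (3546 and 3548 CPM, against 3751 and 3722, 0.08 ± 0.01), as were PABPC1, the poly-A binding protein (0.17 ± 0.02), and NPM1, a nucleolar chaperone (0.18 ± 0.02). With length and GC trends removed EEF2 was no longer called (0.02, adjusted p = 0.397), and EIF3E (-0.20) and PABPC1 (0.11) were closer to 0. Of 21 genes of the mTORC1 pathway and regulators of TOP mRNAs, 6 were lower and 6 higher, against 17.3% and 19.3% of all tested genes. LARP1 (0.15 ± 0.04), MTOR (0.24 ± 0.05) and RPTOR (0.38 ± 0.08), the scaffold of mTORC1, were higher, while RPS6KB1, the S6 kinase (-0.42 ± 0.09), and TIA1, which binds TOP mRNAs (-0.54 ± 0.05), were lower and EIF4EBP1 was not called (0.14 ± 0.08, adjusted p = 0.16). MTOR was not called with limma (adjusted p = 0.0550 and 0.0528).

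Of 28 ribosome biogenesis factors, 7 were lower and 1 was higher, with a median log2 fold change of -0.10, against 17.3% lower and 19.3% higher of all tested genes. NCL, the nucleolin, was lower (329 CPM in both siControl libraries, 276 and 282 in siALKBH5, -0.24 ± 0.03, adjusted p = 2.2e-08), NOP16 was the lowest (-0.49 ± 0.14), and POLR1A, the largest subunit of RNA polymerase I, was higher (0.28 ± 0.07) but was not called with limma (adjusted p = 0.0982 and 0.0932). FBL, the methyltransferase fibrillarin, was not called (0.04 ± 0.04, adjusted p = 0.451). Of 6 chaperones of ribosomal proteins, TSR2, which carries RPS26, was higher (0.23 ± 0.08, adjusted p = 0.0252) and GRWD1 had the lowest value (-0.07 ± 0.08, adjusted p = 0.536). Of 10 factors that bind ribosomal protein promoters, 3 were lower and 0 higher, with a median of -0.16, against the same shares of all tested genes. GABPA, an ETS factor, was the lowest (-0.24 ± 0.08, adjusted p = 0.017) and MYC was not called (0.08 ± 0.07, adjusted p = 0.369). None of NOP16, TSR2 and GABPA was called with DESeq2 (adjusted p = 0.0575, 0.122 and 0.113). NOP16 also lost its call without siControl replicate 2 (0.248) or siALKBH5 replicate 1 (0.0691), TSR2 without siControl replicate 2 (0.276) or siALKBH5 replicate 2 (0.261), and GABPA without siControl replicate 1 (0.0790), siControl replicate 2 (0.0572) or siALKBH5 replicate 2 (0.0811).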

How the data were processed

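Poly-A RNA-seq of 4 HaCaT libraries was used. Per the labels, the authors aligned reads to hg38 with HISAT2 2.0.5 and deposited raw counts per gene, made with featureCounts 1.5.0-p3, without normalization. The settings for strand and for reads with several matches are not given in the sources used here. The deposited gene length is the other column used. Deposited FPKM and the authors' own fold changes and p-values were not used, and 0 columns of library values had no matching label. All 58735 gene IDs and positions matched GENCODE 29.

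For the tests, edgeR 4.0.16 (R 4.3.3) was applied to the counts (filterByExpr, TMM over all genes, glmQLFit and glmQLFTest, Benjamini-Hochberg over 15075 genes). The study's own threshold also asks for a log2 fold change of 1, and both were applied. CPM are TMM-scaled. The common biological coefficient of variation was 0.0253. Libraries of a group differed by more than sampling noise (chi-square per degree of freedom 1.74 in siControl and 1.85 in siALKBH5). Exon overlap and shared windows of 50 bases were computed from GENCODE 29 transcripts, with 1 representative transcript per gene. Pyrimidine runs were read from RefSeq start windows, taking the longest run where a gene has several starts.

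Alternatives were DESeq2 1.42.0, other scalings and filters, the replicate number as a block, each library left out, pseudogene counts added, a length trend removed, and limma 3.58.1 with a pseudocount of 1 or 0.1 on log2 FPKM, with FPKM recomputed from the counts. Removing length and GC trends together, and leaving out genes that share exons, were added after the data were seen. Simulated counts with known changes were run through edgeR, its replicate block, its removal of both trends, DESeq2 and limma with a pseudocount of 1. The other alternatives were not simulated.

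Members and gene lists were chosen with earlier results of these data known. Named genes were ALKBH5, 22 ribosomal protein genes with roles of their own, the 5 highest and 5 lowest fold changes, the 3 highest and 3 lowest levels per length, genes not tested, and in each other list the extremes and chosen translation genes. Values of 2 genes that this rule names are not reported here.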

Additional observations from a re-analysis of the deposited data

How the results depend on the processing

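The number of ribosomal protein genes called lower lay between 38 (DESeq2) and 55 (scaling without mitochondrial genes, and with length and GC trends removed) under the alternatives that kept the threshold, and between 41 and 44 with 1 library left out. The number called higher was 5 with length and GC trends removed and with limma on log2(FPKM + 1) and log2(FPKM + 0.1), and 6 to 7 with 1 library left out. When the log2 change also had to reach 1 in size, 0 were lower and 0 higher. The share of all tested genes called under each alternative is not given here. These counts therefore do not set the family against all genes. The median log2 fold change was negative in all alternatives: -0.114 with library totals alone, -0.121 without the ribosomal protein genes in the totals, -0.123 without mitochondrial genes, -0.0846 with no filter, -0.109 with both trends removed, -0.113 with either form of limma, -0.0813 without genes that share exons, and -0.100 to -0.0777 with 1 library left out. Without mitochondrial genes in the denominator, the share differed by -0.607 percentage points. Pseudogenes called lower and higher were 2 and 3 with DESeq2, 6 were lower with the length trend removed, and with 1 library left out 5 to 16 were lower and 3 to 8 higher. The fewest lower came without siALKBH5 replicate 1 (5) or siControl replicate 2 (6), and the fewest higher without siALKBH5 replicate 2 (3). With either form of limma 8 of the other translation genes were higher.

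With the replicate number as a block, 50 ribosomal protein genes were lower and 9 higher, and all 56 genes called without the block were among them. Deviations of the same-numbered libraries from their group means correlated at r = 0.03 across 15075 genes, and same-numbered libraries also share a deposited table, but no source used here states that a number marks a shared culture or day, so the numbers were not taken as pairs.

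Of the genes called in the report, 55 of the 56 ribosomal protein genes kept their sign in all alternatives and 40 kept their call. Values near 0 changed sign. RPS3 was at -0.0207, -0.0284 and -0.0299 with library totals alone, without the ribosomal protein genes or without mitochondrial genes in them, at -0.0540 with both trends removed (adjusted p = 0.0188), at -0.0205 and -0.0206 with limma, and between -0.0126 and 0.0196 with 1 library left out. RPLP0 was at -0.00585 and -0.00728 with the totals that leave genes out and at -0.0477 with both trends removed (adjusted p = 0.0204). RPL39 was at -0.0110, -0.0188 and -0.0202 with the same scalings, at -0.0106 and -0.0107 with limma and between -0.0116 and 0.0371 with 1 library left out. RPL32, called higher in the report, was at -0.0180 with both trends removed. RPL38 was at 0.000545 with no filter and between -0.0223 and 0.0146 with 1 library left out. RACK1 was at 0.000363 with DESeq2, 0.00279 with no filter, 0.00134 with the length trend removed, -0.0602 with both trends removed (adjusted p = 0.0171) and between -0.0199 and 0.0139 with 1 library left out. RPS10 lay between -0.392 and 0.854 with 1 library left out and was negative without siControl replicate 1 (-0.381) or siALKBH5 replicate 1, FBL was at -0.0186 with both trends removed and GRWD1 lay between -0.142 and 0.00276 with 1 library left out. The cause was not tested. At 2 libraries per group, genes of few counts, such as RPS10 and RPL36A, carry standard errors too wide to show differences of the size seen in this family.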
